A study of Rattus norvegicus with 18 samples.

Results

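The genes described here are 38 genes of skeletal muscle, most of them encoding parts of the sarcomere, measured in rat knee synovial tissue. They were taken as a named list: a member is a gene whose array probes carry its symbol or a current synonym, and 1 probe stands for each gene, the brightest one. All 38 were found, on 47 of the 41012 gene probes of the array, and 6 genes had several probes. The reference table gives Mylpf its current symbol, Myl11. Of the 38 genes, 29 passed a filter on dim probes, which kept a probe only if some group had it well above background on each of its 3 arrays. In all, 23607 genes passed. The 9 that did not pass were Actn2, Mybpc2, Myh7, Myl2, Myot, Ryr1, Smpx, Tcap and Tnni1, and they are described by their values only.

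The study used 1-colour Agilent arrays of total RNA from the knee synovium of male Lewis rats aged 6 to 8 weeks, with 18 arrays in 6 groups of 3. The control group held normal rats, and the AIA group had adjuvant-induced arthritis, a joint inflammation raised by injected adjuvant. AIA-cold and AIA-hot were arthritis models named for the cold and hot patterns of Chinese medicine, and AIA-cold-WTD and AIA-hot-WTD were the same models treated with WTD, a formula of Chinese herbs. The labels do not describe what made a model cold or hot, nor the dose and schedule of WTD. In order of replicate, the titles of AIA-cold-WTD carry the letters G, Z and Z, and those of AIA-hot-WTD carry D, G and Z. No label explains these letters, so whether the arrays of a WTD group had the same treatment is not known. The array titles speak of biological replicates but do not say whether each array is 1 rat or a pool, so p-values measure the spread between these samples only. Replicate numbers follow the order of deposit and pair no samples.

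The sarcomere is the contractile unit of striated muscle. Thick filaments of myosin slide along thin filaments of actin when calcium, released from the sarcoplasmic reticulum, binds troponin C. Most of its proteins exist in fast and slow forms from different genes: fast fibres carry the myosins of Myh1, Myh2 and Myh4 and the fast troponins, and slow fibres carry Myh7, Myl2 and Myl3 and the slow troponins. Synovium is connective tissue with no muscle fibres of its own, while skeletal muscle lies next to the joint capsule of the knee. In bulk RNA of such a tissue, fewer cells of a type and less RNA per cell cannot be told apart.

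The neighbouring fast myosin genes are near copies of each other, so the probes used for Myh4 and Myh2 are shown first. Each probe has 60 bases, with rn4 positions as the array files give them, and both were read on the plus strand. They overlap by 29 bases when laid against each other, of which 20 match, and capitals mark the 9 that differ.
Myh4 (chr10:53953933-53953992): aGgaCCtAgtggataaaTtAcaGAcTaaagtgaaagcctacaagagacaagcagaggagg
Myh2 (chr10:53889243-53889302): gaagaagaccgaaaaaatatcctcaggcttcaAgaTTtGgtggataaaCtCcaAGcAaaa
Signal of a paralog on either probe was not tested, and the patterns of both genes across arrays are given with the thick filament genes.

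Windows of 250 bases before the start site are shown for 3 fast-fibre or muscle energy genes whose levels moved together across arrays, Myh4, Mylpf and Ckm, and for Myh7, the slow myosin, which did not move with them. They come from RefSeq on GRCr8. Capitals mark matches on either strand to the E-box CANNTG, bound by MyoD-family factors, to the MEF2 site, to the CArG box bound by serum response factor, and to TATAAA.
Myh4 (chr10:52421898-52422147, plus strand): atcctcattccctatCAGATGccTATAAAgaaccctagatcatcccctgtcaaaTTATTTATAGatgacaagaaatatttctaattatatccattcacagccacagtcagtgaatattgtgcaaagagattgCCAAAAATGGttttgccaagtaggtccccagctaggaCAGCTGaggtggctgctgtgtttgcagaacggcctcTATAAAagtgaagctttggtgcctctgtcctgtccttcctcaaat
Mylpf (chr1:191260039-191260288, plus strand): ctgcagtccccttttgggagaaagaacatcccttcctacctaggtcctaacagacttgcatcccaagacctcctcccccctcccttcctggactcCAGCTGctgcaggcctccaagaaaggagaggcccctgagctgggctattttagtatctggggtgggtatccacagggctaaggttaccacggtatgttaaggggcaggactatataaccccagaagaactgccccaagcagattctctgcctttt
Ckm (chr1:88189211-88189460, plus strand): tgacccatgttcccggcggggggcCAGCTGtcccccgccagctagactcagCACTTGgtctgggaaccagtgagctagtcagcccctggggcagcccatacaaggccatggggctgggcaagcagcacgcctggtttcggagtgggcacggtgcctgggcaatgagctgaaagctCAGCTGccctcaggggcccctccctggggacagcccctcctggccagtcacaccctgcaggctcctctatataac
Myh7 (chr15:32438195-32438444, minus strand): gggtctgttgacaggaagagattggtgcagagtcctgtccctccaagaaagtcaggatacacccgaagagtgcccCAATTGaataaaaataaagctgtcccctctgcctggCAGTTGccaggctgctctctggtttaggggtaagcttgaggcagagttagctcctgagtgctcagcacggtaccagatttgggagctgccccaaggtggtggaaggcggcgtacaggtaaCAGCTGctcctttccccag
Of the 38 genes, 32 had a window in the promoter table. CANNTG was present in 27 of them (84.4%), against 65.5% of all 33469 windows of this length. The narrower form CAGCTG, which is also a CANNTG match, was present in 12 (37.5%, against 12.0%). A MEF2 match was present in 5 (15.6%, against 2.96%), a CArG match in 4 (12.5%, against 1.5%) and TATAAA in 11 (34.4%, against 12.9%). In the Myh4 window a TATAAA match lies inside the MEF2 match. A muscle gene was counted if any window of it matched, while the background is a share of single windows, so the units are unlike. These are matches of letters and were not tested further.

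Values are log2 signals after subtracting each array's 75th percentile, so 1 unit is a factor of 2 in signal and 0 is the array's own upper quartile. Control 1 stood apart in brightness: its 75th percentile of signal was 72.8, against 216 to 354 on the other 17 arrays, and the share of its probes that stood well above background was 43.3%, compared with 56.4% to 76.6%. On it only 15 of the 38 muscle genes were well above background, so a low value there is a weak measurement. It also carried the highest mean of the cartilage list, 4.83 above the genes' own medians against -1.35 to 1.74 elsewhere, with 7 of the 9 measured cartilage genes highest there. All 13 markers of synovial fibroblasts and lining cells were well above background on all 18 arrays. No gene of the 10 lists for other cell types, among them smooth muscle, heart, cartilage, bone and tendon, was highest on AIA-hot-WTD 3. The arrays lay on 5 slides, and no slide held both a cold group and a group without cold.

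The muscle genes varied far more between arrays than most genes did. The 3 arrays with the highest mean came from AIA-hot-WTD (1 array) and control (2 arrays). AIA-hot-WTD 3 was the highest array for 25 of the 38 genes, and control 2 was the next highest for 22 of those 25. On AIA-hot-WTD 3, 27 genes were well above background and more than 1 log2 unit above their own median over the 18 arrays. On control 2 there were 23 such genes, on control 3 there were 12, and on AIA 1 and AIA-hot 3 there were 6 each. The other AIA-hot-WTD arrays had 3 and 0. Genes more than 1 unit below their own median were most frequent on AIA-hot 2 (16 genes), AIA-cold-WTD 1 (12 genes), AIA 2 (11 genes) and AIA-cold 3 (11 genes), which are arrays of 4 different groups.

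**Figure D1:**
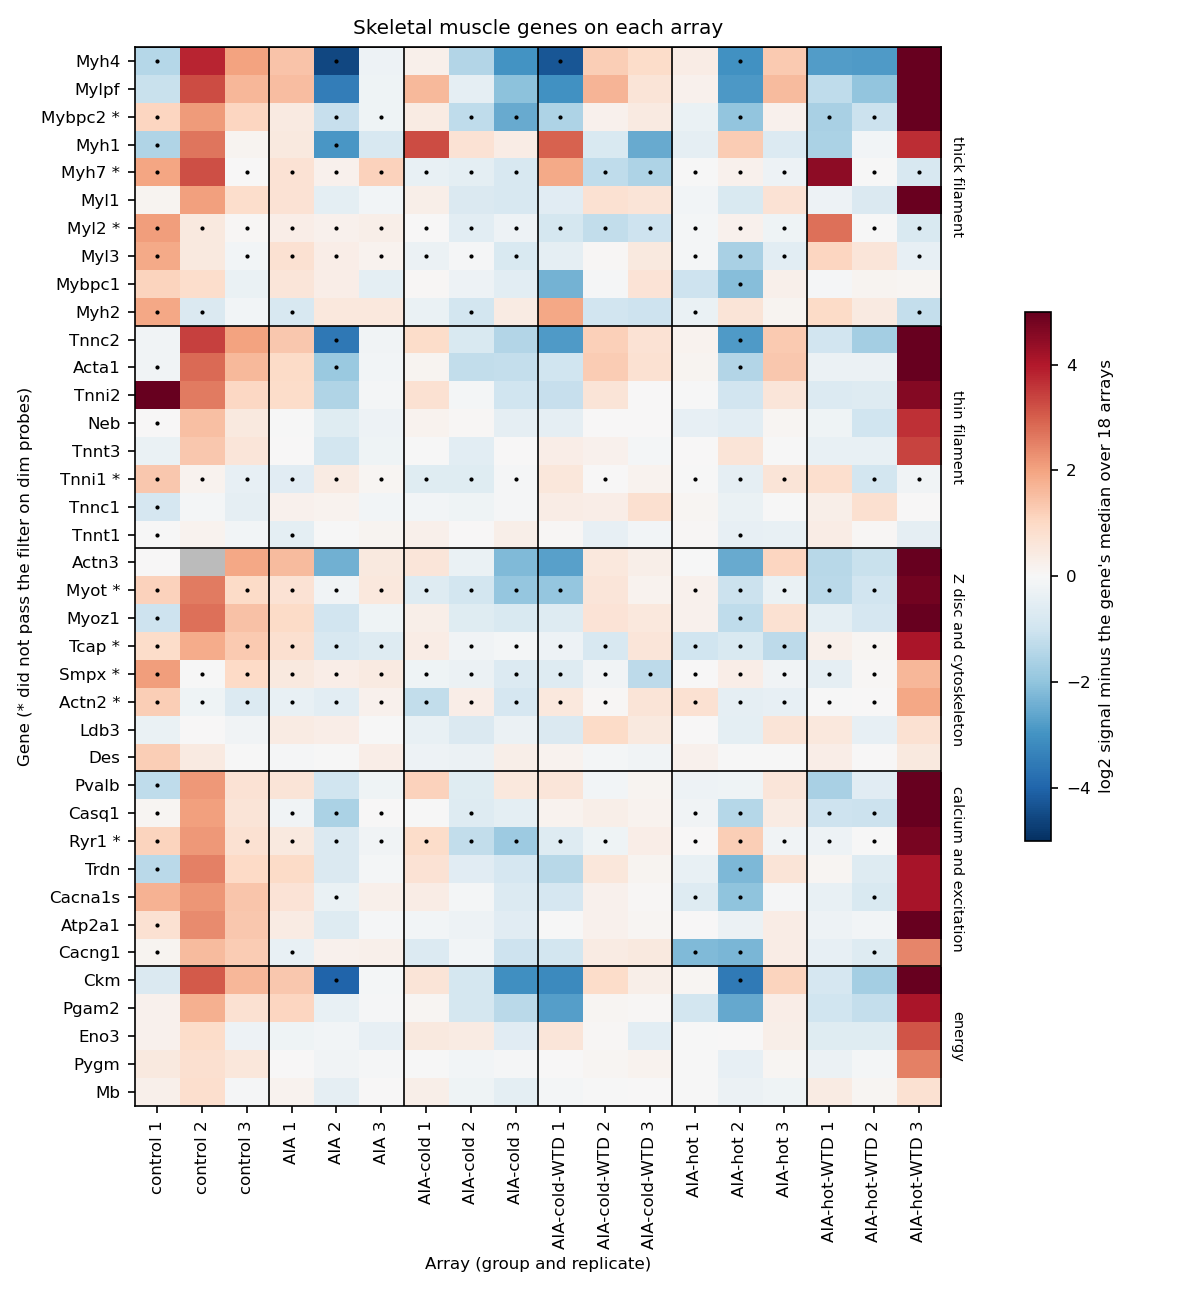
Log2 signal of the 38 muscle genes (rows, by role) on the 18 arrays (columns, by group), each relative to the gene's own median; the colour stops at 5 units either way, dots mark values not well above background, an asterisk marks a gene that did not pass the filter and grey is a missing value. AIA-hot-WTD 3 is the array on which 25 of the 38 genes were highest, followed by control 2.

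Averaged over the 29 genes that passed the filter, relative to each gene's median, the array means ran from -1.17 on AIA-hot 2 to 3.30 on AIA-hot-WTD 3. Control 1, 2 and 3 had means of 0.19, 1.71 and 0.74. AIA 1, 2 and 3 had 0.52, -1.06 and -0.07, and AIA-cold 1, 2 and 3 had 0.35, -0.41 and -0.75. AIA-cold-WTD 1, 2 and 3 had -0.77, 0.35 and 0.14, and AIA-hot 1, 2 and 3 had -0.19, -1.17 and 0.42. AIA-hot-WTD 1, 2 and 3 had -0.44, -0.60 and 3.30, so the highest array of all shares its group with arrays below most others. All 6 groups overlap in these means. The within-group SD ran from 0.56 in AIA-cold to 0.80 in AIA and AIA-hot, and was 2.20 in AIA-hot-WTD (n = 3 each).

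The range of a muscle gene over the 18 arrays had a median of 5.73 log2 units among the 29, against 1.26 among all genes tested. A range over 4 units was found in 19 of the 29 (65.5%), against 757 of all genes (3.21%). The median within-group SD was 1.31 against 0.307, and 0.799 against 0.307 without AIA-hot-WTD 3. A gene can pass the filter through 1 group in which it is high, so these figures describe the 29 and not the whole list.

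Among the 10 thick filament genes the fast myosin heavy chain Myh4, the myosin of the fastest limb fibres, had one of the widest ranges. Its log2 signal was -1.97, 3.28 and 1.47 on control 1 to 3, 0.88, -5.07 and -0.77 on AIA 1 to 3, and -0.29, -2.0 and -3.53 on AIA-cold 1 to 3. On AIA-cold-WTD 1 to 3 it was -4.81, 0.70 and 0.39, on AIA-hot 1 to 3 -0.17, -3.55 and 0.80, and on AIA-hot-WTD 1 to 3 -3.32, -3.37 and 5.56. The values on control 1, AIA 2, AIA-cold-WTD 1 and AIA-hot 2 were not well above background. Every group thus spans several units, and the groups overlap. The highest array was 68.0 times the median array and 4.84 times the next one, control 2.

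Mylpf, the fast regulatory myosin light chain, was well above background on all 18 arrays and followed the same order. It stood at -0.28, 4.10 and 2.49 on the controls, 2.36, -2.63 and 0.62 on AIA, and 2.46, 0.38 and -1.24 on AIA-cold. It stood at -2.19, 2.51 and 1.47 on AIA-cold-WTD, 1.04, -2.04 and 2.40 on AIA-hot, and -0.43, -1.15 and 6.76 on AIA-hot-WTD. The highest array was 60.8 times the median and 669.6 times the lowest, AIA 2. Across the 18 arrays Myh4 and Mylpf had a correlation of 0.982; such correlations are descriptions, over arrays that share groups and slides. Myl1, the fast essential light chain (highest 3.88), and Mybpc2, the fast myosin-binding protein C (highest 2.20), were also highest on AIA-hot-WTD 3 and next highest on control 2, at 1.01 and -1.09.

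The other myosin heavy chains did not share this order. Myh1, of intermediate fast fibres, was highest on AIA-hot-WTD 3 at 1.43, but 1.02 on AIA-cold 1 and 0.72 on AIA-cold-WTD 1 came next, above 0.43 on control 2. On the remaining arrays it was -3.75 and -2.09 (control 1, not well above background, and 3), -1.75, -5.14 and -3.04 (AIA, the lowest again not well above background), -1.52 and -1.86 (AIA-cold 2 and 3), -3.02 and -4.77 (AIA-cold-WTD 2 and 3), -2.70, -0.96 and -2.94 (AIA-hot), and -3.84 and -2.39 (AIA-hot-WTD 1 and 2). AIA-cold-WTD 1 was thus high for Myh1 and near its lowest for Myh4 and Mylpf. The correlation of Myh1 with Myh4 was 0.355.

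Myh2, of the more oxidative fast fibres, was well above background on 12 of the 18 arrays. It was not on control 1 (-1.58), control 2, AIA 1, AIA-cold 2, AIA-hot 1 and AIA-hot-WTD 3 (-4.74), and the values of those 6 arrays have no order. The highest array well above background was AIA-cold-WTD 1 at -1.58. On the other arrays it was -4.25 and -3.67 (control 2 and 3), -4.34, -2.98 and -2.98 (AIA), -3.86, -4.44 and -3.11 (AIA-cold), -4.48 and -4.56 (AIA-cold-WTD 2 and 3), -3.86, -2.89 and -3.39 (AIA-hot), and -2.57 and -3.06 (AIA-hot-WTD 1 and 2). AIA-hot-WTD 3, where Myh4 was highest, gave no signal of Myh2 well above background.

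Myh7, the slow myosin also used in heart, did not pass the filter. It was highest on AIA-hot-WTD 1 at -1.58. Values on control were -4.07, -2.83 and -6.05, on AIA -5.34, -5.85 and -4.89, on AIA-cold -6.44, -6.53 and -6.84, on AIA-cold-WTD -4.18, -7.33 and -7.60, on AIA-hot -6.07, -5.84 and -6.33, and on the other AIA-hot-WTD arrays -6.07 and -6.86. Only control 2, AIA-cold-WTD 1 and AIA-hot-WTD 1 were well above background. Myl2, the slow regulatory light chain, was well above background on AIA-hot-WTD 1 alone, at -3.02, and its correlation with Myh7 was 0.785. Myh6, the atrial myosin and the close neighbour of Myh7, was also well above background on that array alone, at -2.10, and the atrial hormone gene Nppa on none. On AIA-hot-WTD 3, where fast genes peaked, Myh7, Myl2 and Myl3 were not well above background. Myl3, the slow essential light chain, was well above background on 6 arrays, from -4.52 on AIA-cold-WTD 1 to -2.98 on AIA-hot-WTD 1. Mybpc1, slow myosin-binding protein C, was highest on control 1 at -0.46 and lowest on AIA-cold-WTD 1 at -3.94.

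**Figure D2:**
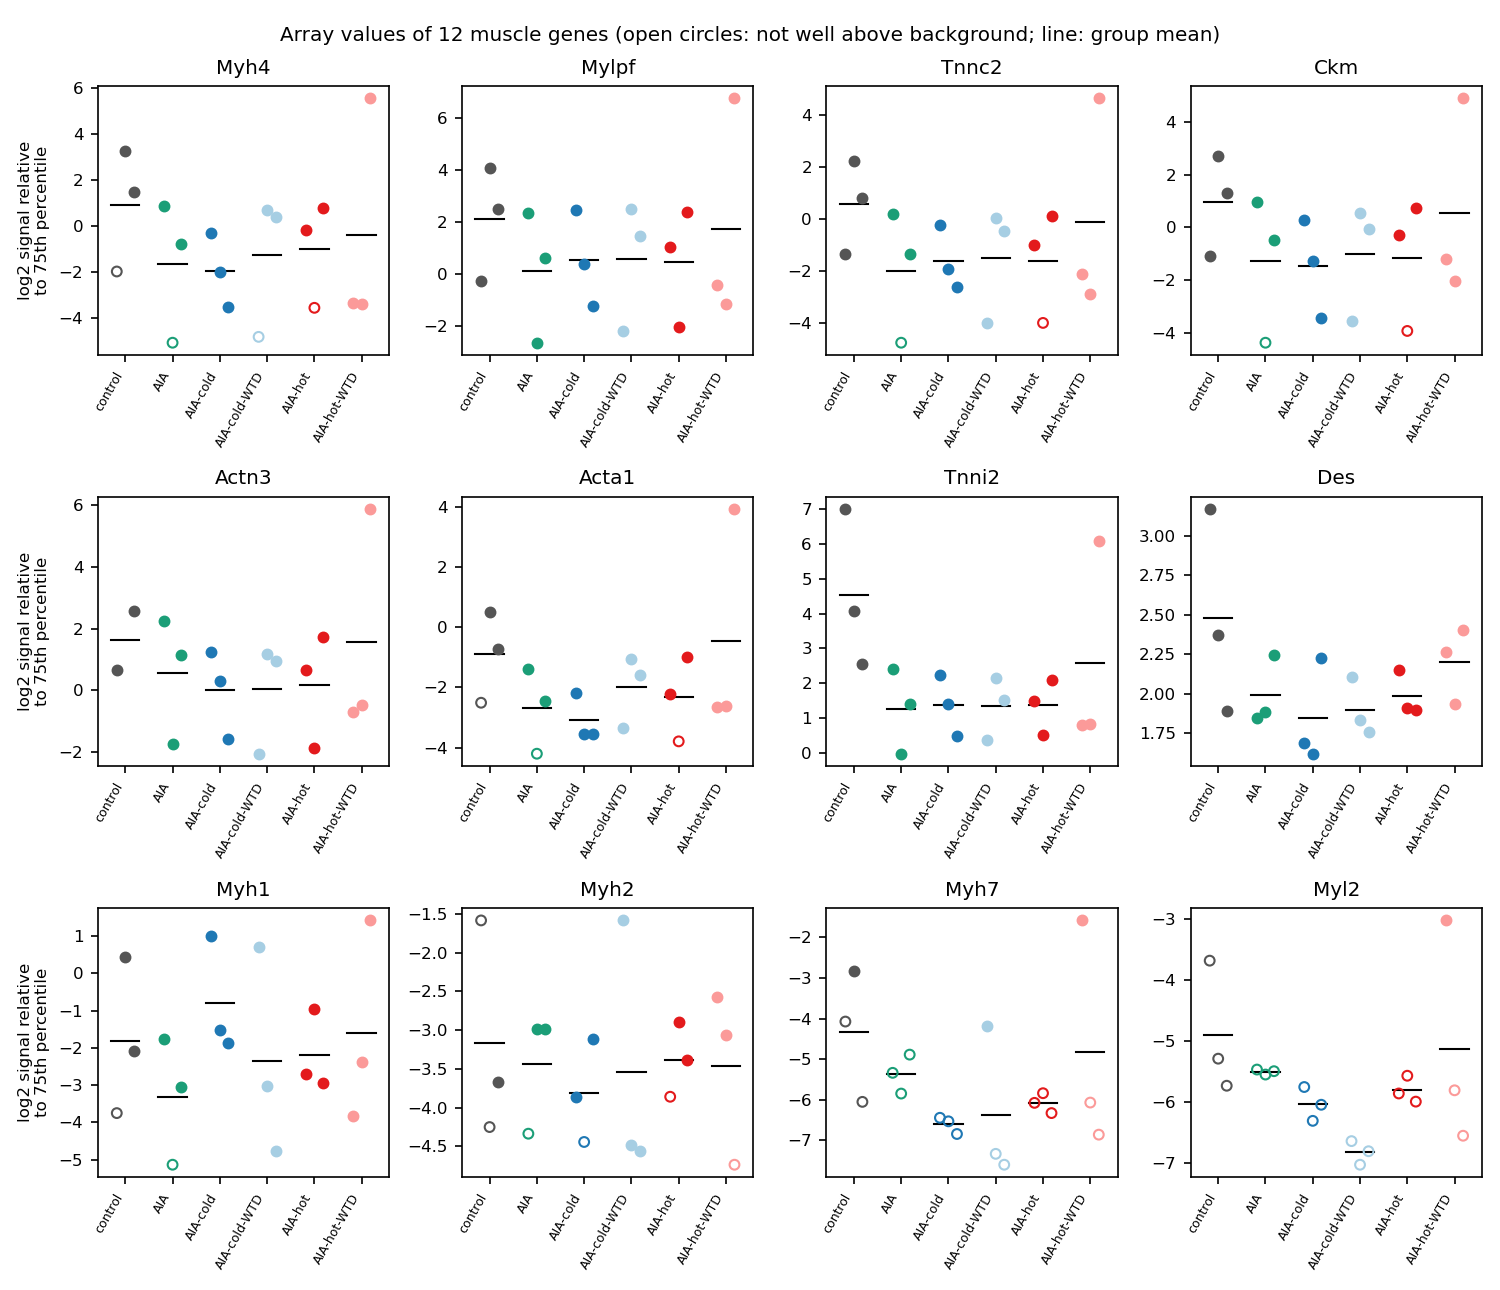
Log2 signal minus the array's 75th percentile (vertical axis) of 12 muscle genes, by group (horizontal axis); each point is 1 array, open circles are values not well above background and lines are group means of 3 arrays, or 2 for Actn3 in control. Mylpf spans -2.63 to 6.76, with the AIA-hot-WTD group holding the highest array and also arrays at -0.43 and -1.15.

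Of the 8 thin filament genes, the fast troponin genes Tnnc2 and Tnnt3 were again highest on AIA-hot-WTD 3 and next highest on control 2, while Tnni2 was highest on control 1. Tnnc2, fast troponin C, was -1.32, 2.26 and 0.84 on control, 0.20, -4.74 and -1.35 on AIA, -0.23, -1.91 and -2.61 on AIA-cold, -3.99, 0.04 and -0.44 on AIA-cold-WTD, -1.0, -3.98 and 0.15 on AIA-hot, and -2.10, -2.87 and 4.66 on AIA-hot-WTD. Only AIA 2 and AIA-hot 2 were not well above background. Its highest array was 56.5 times the median, and its correlation with Myh4 was 0.981.

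Acta1, the actin of skeletal muscle thin filaments, was more concentrated in a single array. It was -2.51, 0.51 and -0.71 on control, -1.38, -4.20 and -2.47 on AIA, -2.19, -3.56 and -3.55 on AIA-cold, -3.34, -1.06 and -1.59 on AIA-cold-WTD, -2.21, -3.79 and -1.0 on AIA-hot, and -2.65, -2.61 and 3.92 on AIA-hot-WTD. The values on control 1, AIA 2 and AIA-hot 2 were not well above background. AIA-hot-WTD 3 was 76.6 times the median array, and its next highest array was control 2. Neb, the giant ruler protein nebulin, peaked on the same array at 1.35, and Tnnt3, fast troponin T, at 5.05.

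Tnni2, fast troponin I, was looked at more closely after its values were seen, because its highest array was a different one. It was 6.99, 4.08 and 2.55 on control, 2.40, -0.02 and 1.41 on AIA, 2.25, 1.41 and 0.50 on AIA-cold, 0.36, 2.14 and 1.51 on AIA-cold-WTD, 1.48, 0.53 and 2.10 on AIA-hot, and 0.80, 0.84 and 6.08 on AIA-hot-WTD. All 18 values were well above background. Control 1, the highest, is the dim array on which the cartilage list stood at 4.83 and on which Mylpf (-0.28) and Tnnc2 (-1.32) were near or below their medians. The cartilage mean was -1.26 to 4.83 over the control arrays and, by group, -1.02 to -0.49 in AIA, -0.27 to 1.37 in AIA-cold, 0.10 to 1.14 in AIA-cold-WTD, -0.66 to 0.90 in AIA-hot and -1.35 to 1.74 in AIA-hot-WTD, and its part in the Tnni2 value was not tested. Its correlation with the mean of the other tested muscle genes was 0.739 over 18 arrays, 0.613 without AIA-hot-WTD 3, and 0.976 without both that array and control 1.

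The slow troponins had other high arrays. Tnnc1, the troponin C of slow fibres and heart, was highest on AIA-hot-WTD 2 at -0.87, and its lowest value, -2.53 on control 1, was not well above background. Tnnt1, slow troponin T, was highest on AIA-hot-WTD 1 at -2.76, and its lowest value, -3.60 on AIA 1, was not well above background. Tnni1, slow troponin I, did not pass the filter and was well above background on 3 arrays.

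**Figure D3:**
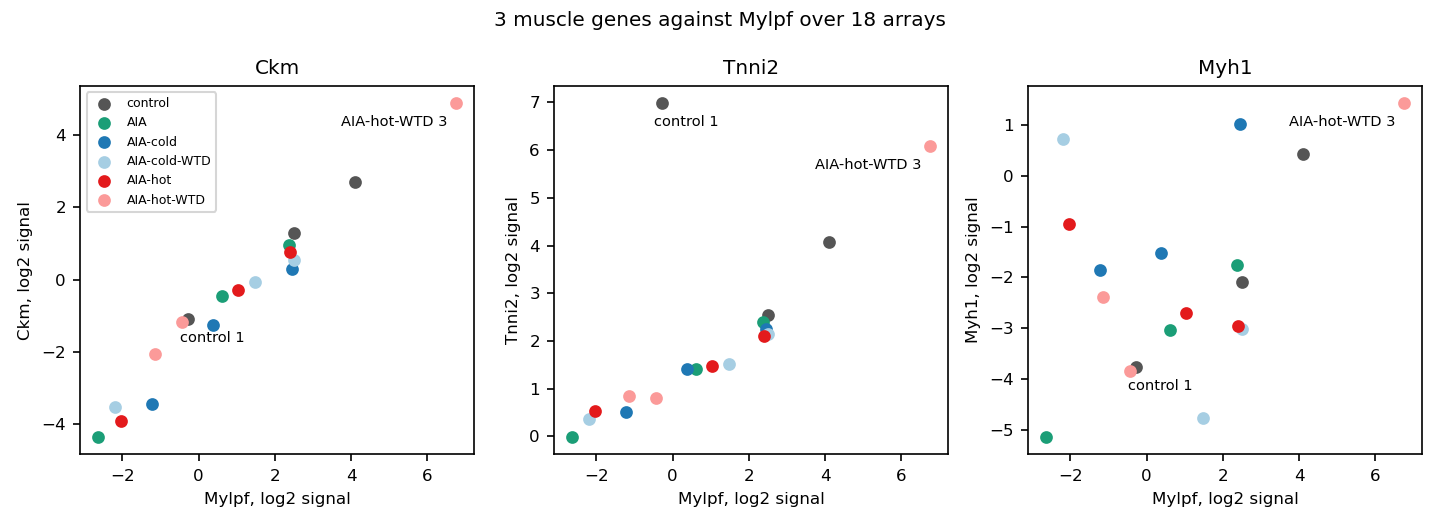
Log2 signal of Ckm, Tnni2 and Myh1 (vertical axes) against that of Mylpf (horizontal axis) on the 18 arrays, coloured by group. Ckm follows Mylpf (correlation 0.983), Tnni2 does so apart from control 1 at 6.99 (0.647), and Myh1 is scattered (0.412).

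Of the 8 Z disc and cytoskeleton genes, Actn3, the alpha-actinin of fast fibres, followed the fast filament genes. It was 0.64 and 2.59 on control 1 and 3, 2.24, -1.75 and 1.13 on AIA, 1.25, 0.29 and -1.58 on AIA-cold, -2.07, 1.19 and 0.95 on AIA-cold-WTD, 0.64, -1.89 and 1.72 on AIA-hot, and -0.73, -0.47 and 5.88 on AIA-hot-WTD. Its spot on control 2 was dropped for an outlier flag, so its fits use 17 arrays. The highest array was 37.6 times the median.

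Myot, the Z disc protein myotilin, was well above background on only 4 arrays: AIA-hot-WTD 3 at 0.13, control 2 at -2.11, and AIA-cold-WTD 2 and 3 at -4.11 and -4.54. On the other arrays its values, which have no order there, lay between -6.63 and -3.55. Myoz1, a calcineurin-binding protein of fast fibres, peaked on AIA-hot-WTD 3 at 3.07. Des, desmin, the intermediate filament of all muscle types, behaved otherwise: it stayed between 1.62 and 2.41 on 17 arrays and was 3.17 on control 1, where all 7 measured smooth muscle markers were also highest. Its correlation with the mean of the other tested genes was 0.243, and the mean of the smooth muscle markers was 1.19 on control 1 against -0.75 to 0.42 elsewhere; its part in Des was not tested. Ldb3, a Z disc scaffold also found in heart, ranged from -0.18 to 1.51, and a second bright probe of it gave a correlation of 0.966 with the first. A further pair of Ldb3 probes, well above background on 3 and 0 arrays, gave 0.064 and -0.16.

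All 7 calcium and excitation genes were highest on AIA-hot-WTD 3. Pvalb, parvalbumin, the calcium buffer of fast fibres, was -2.25, 1.18 and -0.29 on control, -0.37, -2.0 and -1.22 on AIA, 0.14, -1.61 and -0.47 on AIA-cold, -0.40, -1.12 and -0.87 on AIA-cold-WTD, -1.25, -1.20 and -0.39 on AIA-hot, and -2.63, -1.57 and 4.03 on AIA-hot-WTD, with only control 1 not well above background. Apart from that peak and control 2, Pvalb varied less than Mylpf.

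Casq1, calsequestrin, the calcium store of the fast sarcoplasmic reticulum, was well above background on 9 arrays. It was -3.87, -1.94 and -3.35 on control, -4.16, -5.58 and -3.96 on AIA, -4.0, -4.61 and -4.47 on AIA-cold, -3.82, -3.69 and -3.80 on AIA-cold-WTD, -4.15, -5.41 and -3.56 on AIA-hot, and -5.01, -5.07 and 1.08 on AIA-hot-WTD. No AIA array was well above background for it. Atp2a1, the calcium pump of fast fibres, peaked at 2.45 on AIA-hot-WTD 3, and on the other 17 arrays it lay between -3.26 and -0.25. Cacna1s, the voltage sensor of the transverse tubule, peaked at 0.80, its gamma subunit gene Cacng1 at -0.88, and triadin, Trdn, at 1.55. Ryr1, the calcium release channel, was well above background on 3 arrays, with -0.07 on AIA-hot-WTD 3 and -2.63 on control 2. A second probe of Cacna1s, well above background on 3 arrays, did not follow the first (correlation 0.101).

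The 5 energy genes included wide and narrow patterns. Ckm, the muscle creatine kinase that regenerates ATP at the sarcomere, was -1.09, 2.71 and 1.30 on control, 0.96, -4.37 and -0.46 on AIA, 0.28, -1.26 and -3.44 on AIA-cold, -3.54, 0.55 and -0.07 on AIA-cold-WTD, -0.28, -3.92 and 0.75 on AIA-hot, and -1.19, -2.05 and 4.89 on AIA-hot-WTD. The values on AIA 2 and AIA-hot 2 were not well above background. Its highest array was 38.3 times the median and 4.54 times the next, and its correlation with Mylpf was 0.983.

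Pgam2, the muscle phosphoglycerate mutase of glycolysis, was well above background on every array, at -0.21, 1.37 and 0.37 on control, 0.67, -0.78 and -0.46 on AIA, -0.31, -1.28 and -1.75 on AIA-cold, -3.17, -0.32 and -0.35 on AIA-cold-WTD, -1.33, -2.96 and -0.09 on AIA-hot, and -1.42, -1.60 and 3.67 on AIA-hot-WTD. Eno3, muscle enolase, peaked at 5.88 and Pygm, muscle glycogen phosphorylase, at 1.08 on the same array. Mb, myoglobin, the oxygen store of oxidative fibres, stayed between -0.34 and 1.02, highest on control 2.

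The mean of the listed fast-fibre genes that passed the filter spread more widely between arrays than that of the listed slow-fibre genes. The mean of the 12 fast genes that passed the filter, relative to their own medians, ran from -1.87 on AIA 2 to 4.47 on AIA-hot-WTD 3, with 2.27 on control 2 and 1.07 on control 3. The mean of the 3 slow genes that passed, Myl3, Tnnc1 and Tnnt1, ran from -0.79 on AIA-hot 2 to 0.59 on AIA-hot-WTD 1. AIA-hot-WTD 1 was thus low for fast genes and the highest for slow ones. The other 3 of the 6 slow genes, Myh7, Myl2 and Tnni1, did not pass. Mybpc1, slow myosin-binding protein C, was in neither list. It passed the filter, was well above background on 17 arrays and had a range of 3.49 units. Since Myl3 was well above background on 6 arrays only, the slow mean is in part not measured. The same holds for the fast mean, with Casq1 well above background on 9 arrays and Myh2 on 12.

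**Figure D4:**
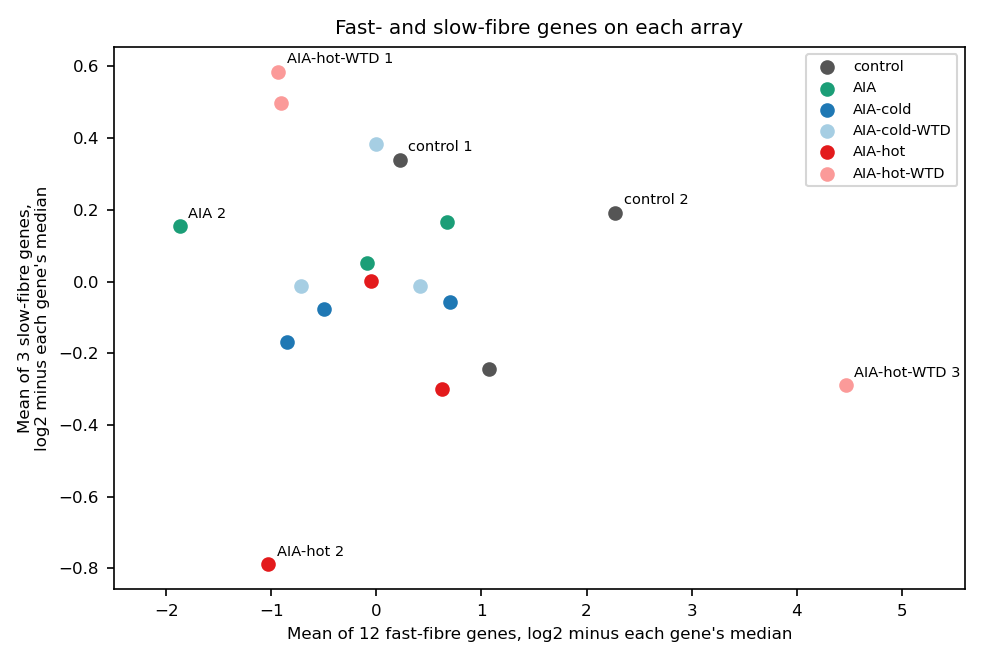
Mean log2 signal of 12 fast-fibre genes (horizontal axis) against that of 3 slow-fibre genes (vertical axis), each relative to the gene's own median, for the 18 arrays by group. Fast means span -1.87 to 4.47, slow means -0.79 to 0.59.

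Across the 18 arrays, 15 of the 29 tested genes had a correlation above 0.9 with the mean of the other tested genes, 6 had 0.5 to 0.9 and 8 were below 0.5. Without AIA-hot-WTD 3 the number above 0.9 was 8. The tightest were Acta1 (0.973), Myl1 (0.968), Tnnc2 (0.960) and Myoz1 (0.960). Below 0.5 were Des, Myh1 (0.411), Myl3 and Tnnt1, among others. The lowest was Myh2, a listed fast-fibre gene, at -0.570, with 12 of its 18 values well above background. All of these are measured on the same arrays and share each array's scaling.

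The comparisons between groups are given next, each from 1 limma fit of all 18 arrays with Benjamini-Hochberg adjusted p-values over all genes tested. No muscle gene passed an adjusted p of 0.05 in any of the 9 comparisons, nor under any of the alternatives tried. The precision was low: the median standard error of the AIA-hot-WTD against AIA-hot difference was 0.987 log2 units among the 29 genes and 0.244 among all genes. All groups share the same estimate of a gene's spread, so AIA-hot-WTD 3 enters the errors of every comparison. The median within-group SD of the 29 was 1.31, and 0.799 without it. Fits without that array were run only for comparisons of its group. With only the compared arrays fitted, the smallest adjusted p against control was 0.905 (AIA), 0.217 (AIA-cold) and 0.863 (AIA-hot) in limma. A missed threshold here does not show that levels were alike. The comparisons with control share the same 3 control arrays.

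In AIA against control, 27 of the 29 tested genes had a lower mean in AIA, with a median difference of -0.97 against -0.03 over all genes, and 0 were called (limma; 0% of all genes called). At an unadjusted p under 0.05 there were 2, against 6.19% of all genes. The median moved to -0.54 without control 2 and -1.44 without control 1. In 6 genes every AIA array lay below every control array (background 5.26%): Tnni2, Cacna1s, Atp2a1, Pygm, Casq1 and Neb. Of these, Atp2a1, Casq1 and Neb were not well above background on control 1, their lowest control, so their separation from it was not measured. For Neb the values were -2.28 on control 1 and -2.32 on AIA 1. Tnni2 had the largest difference, -3.28 ± 1.30 (SE; limma adjusted p = 0.756), which was -2.05 without control 1. Myh4 differed by -2.58 ± 2.38, Mylpf by -1.98 ± 2.05, Ckm by -2.26 ± 1.93 and Acta1 by -1.78 ± 1.46, all with overlapping groups. Casq1 was well above background on no AIA array and on 2 of 3 controls, so the size of its difference was not measured. Beside these, all 8 tested cartilage markers had a lower mean in AIA (median -1.82) and all 9 adipocyte markers a higher one (median 0.88). By array the cartilage mean was 4.83, -1.26 and 0.16 on control 1 to 3, and -1.02 to -0.49 in AIA. The adipocyte mean was -1.89, -0.005 and -0.22 on control 1 to 3, and -0.13 to 0.46 in AIA. Control 1 thus held the extreme value in both. The part of these tissues in the muscle values was not tested. Within slide 1, the only slide with both groups (1 AIA array, 3 controls), the median was -0.32 and 19 of 29 were lower.

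In AIA-cold against control, 26 of the 29 had a lower mean, the median was -1.11 against -0.05 over all genes, and 0 were called (limma; 0.534% of all genes called). At an unadjusted p under 0.05 there were 3 (Tnni2, Des and Myl3), against 18.6% of all genes. Every AIA-cold array lay below every control in 7 genes (background 14.6%), 4 of them calcium and excitation genes. Of those 4, Atp2a1, Casq1 and Cacng1 were not well above background on control 1, their lowest control, so their separation from it was not measured. The smallest adjusted p among the muscle genes was 0.212 in limma, for Tnni2 at -3.15 ± 1.30. That value was -1.92 without control 1. Des differed by -0.63 ± 0.27 (limma adjusted p = 0.218), and by -0.29 without control 1. Myl3 was well above background on no AIA-cold array and on 1 control array, so the size of its difference was not measured. All 3 tested tendon markers (median 1.46) and all 7 macrophage markers (median 0.43) had a higher mean in AIA-cold. By array the macrophage mean was -1.38, 0.41 and 0.35 on control 1 to 3. On AIA-cold 1 to 3 it was 0.39, 0.01 and 0.42, so the macrophage difference came mainly from control 1. The part of these tissues in the muscle values was not tested. The median was -0.69 without control 2. No slide held both groups, so slide and group cannot be told apart here.

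In AIA-hot against control, 27 of the 29 had a lower mean, the median was -1.32 against -0.06 over all genes, and 0 were called (limma; 0.0551% of all genes called). At an unadjusted p under 0.05 there were 5, against 12.2% of all genes. The smallest adjusted p was that of Cacng1, 0.261 in limma, at -2.37 ± 0.80, and Cacna1s, at -2.71 ± 0.94 (limma adjusted p = 0.275), had every AIA-hot array below every control. Both sizes are uncertain, since only 1 of 3 AIA-hot arrays was well above background for either gene, and for Cacng1 2 of 3 controls. Myl3 was well above background on no AIA-hot array and on 1 control array. Such separation was found in 4 genes (background 8.3%). Atp2a1 was among them, with its lowest control, control 1, not well above background. No slide held both groups, but slide 2 links them through AIA: with the slide as a block the median was -0.45, 19 of 29 were lower and the Mylpf difference was 0.77, against -1.63 ± 2.05 as reported. The median was -0.61 without AIA-hot 2. That array, the lowest in mean for the muscle genes, had the highest mean of all arrays for the tendon (2.60), synovial fibroblast (0.74) and macrophage (0.45) markers. All 3 tested tendon markers had a higher mean in AIA-hot, with a median of 2.23 and 2 at an unadjusted p under 0.05. By array the tendon mean ran from 0.09 to 2.60 in AIA-hot and from -2.20 to 0.42 in control. The part of these tissues in the muscle values was not tested.

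**Figure D5:**
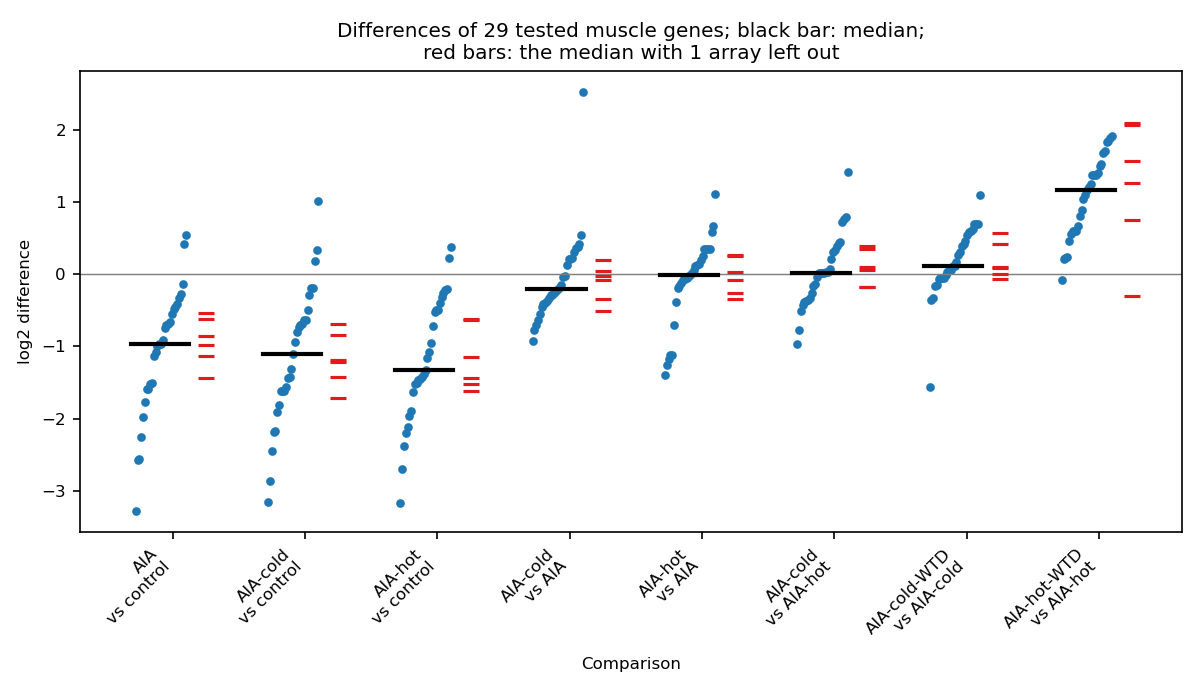
Log2 differences between group means (vertical axis) of the 29 tested muscle genes in 8 comparisons (horizontal axis). Blue points are genes, black bars mark the median and red bars mark the median with 1 array left out in turn. The AIA-hot-WTD against AIA-hot median of 1.17 becomes -0.30 without AIA-hot-WTD 3.

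Among the arthritis models the differences were small against their errors. In AIA-cold against AIA the median was -0.21, with 19 of 29 lower and 0 called (limma; 0% of all genes). No muscle gene had an unadjusted p under 0.05, against 9.18% of all genes. The largest difference was that of Myh1, 2.52 ± 1.57 (limma adjusted p = 0.680). Every AIA-cold array lay below every AIA array in 2 genes (background 14.2%): Ldb3, at -0.71 ± 0.40, and Myl3, whose probe was too dim to measure in both groups. In AIA-hot against AIA the median was -0.01, with 15 lower and 14 higher, 0 called (limma; 0% of all genes) and 1, the dim Myl3, at an unadjusted p under 0.05 (5.13% of all genes). Every AIA-hot array lay above every AIA array in 1 gene, Eno3 (background 3.9%), and below in 1, Myl3 (background 6.11%). In AIA-cold against AIA-hot the median was 0.02, with 0 called (limma; 0.00847% of all genes) and 0 at an unadjusted p under 0.05 (5.41%). The sign of all 3 medians changed when 1 array was left out: they ran from -0.52 to 0.19, from -0.34 to 0.27 and from -0.18 to 0.39.

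In AIA-hot-WTD against AIA-hot, 28 of the 29 had a higher mean with WTD and the median was 1.17 against -0.02 over all genes, with 0 called (limma; 0% of all genes). Those values rest on 1 array. Without AIA-hot-WTD 3 the median was -0.30, with 19 of 29 lower. With it Mylpf differed by 1.26 ± 2.05 and Acta1 by 1.89 ± 1.46. Without it they differed by -1.26 and -0.30. At an unadjusted p under 0.05 there were 3 genes (Mb, Myl3 and Cacng1), against 2.31% of all genes. Mb, at 0.59 ± 0.25, was the 1 gene whose AIA-hot-WTD arrays all lay above AIA-hot (background 2.48%), and its difference was 0.43 without AIA-hot-WTD 3. Myl3 was well above background on 2 of 3 AIA-hot-WTD arrays and no AIA-hot array, and Cacng1 on 2 and 1. All 3 tested tendon markers had a lower mean in AIA-hot-WTD (median -2.28) and all 9 adipocyte markers a higher one (median 0.67); their part was not tested. Within slide 3 (3 AIA-hot-WTD arrays, 1 AIA-hot array) the median was 0.39, with 21 of 29 higher. That value also includes AIA-hot-WTD 3, whose mean over the 29 was 3.30. The means of AIA-hot-WTD 1 and 2, -0.44 and -0.60, lay below the 0.42 of AIA-hot 3 on this slide.

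In AIA-cold-WTD against AIA-cold the median was 0.12, with 19 of 29 higher and 0 called (limma; 0.00847% of all genes). It ran from -0.066 without AIA-cold 3 to 0.57 without AIA-cold-WTD 1. Only Tnnc1 had an unadjusted p under 0.05 (background 6.05%), at 0.63 ± 0.22 (limma adjusted p = 0.674). Every AIA-cold-WTD array lay above every AIA-cold array in 4 genes (background 7.47%): Tnnc1, Casq1, Atp2a1 and Pygm. Casq1 passed the filter only through AIA-cold-WTD itself, so its place in that count carries no weight. It was also not well above background on AIA-cold 2. Within slide 4 (1 AIA-cold-WTD array, 3 AIA-cold arrays) the median was -0.24. The difference between both WTD effects, cold minus hot, had a median of -0.83, with 0 called (limma; 0% of all genes) and 0 at an unadjusted p under 0.05 (4.13%). It was 0.49 without AIA-hot-WTD 3.

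The mean difference of the 12 fast genes was -1.58 in AIA, -1.37 in AIA-cold and -1.30 in AIA-hot, each against control. These fast means are in part not measured. Atp2a1, Casq1, Myh1, Myh2, Myh4 and Pvalb were not well above background on control 1, and Casq1 was so on no AIA array. Of the 3 slow genes that passed, Myl3 was well above background on 1 of the 12 arrays of these groups, so a slow mean that includes it is not a full measurement. The slow Tnnc1 differed by 0.55, 0.34 and 0.38 in the same comparisons, or by 0.012, -0.21 and -0.16 with normexp background correction. Tnnt1 differed by -0.13, 0.18 and -0.26, or by 0.13, 0.53 and 0.071 with quantile normalization. Neither Tnnc1 nor Tnnt1 thus has a settled direction in all 3. Mybpc1, in neither fibre list, had group means of -1.02 in control, -1.43 in AIA, -1.83 in AIA-cold and -2.55 in AIA-hot. Its arrays overlapped between control and each of these groups, with -1.93 on control 3 and -1.32 on AIA-hot 3. Its lowest AIA-hot value, -3.72 on AIA-hot 2, was not well above background. A second probe of Mybpc1, well above background on 12 arrays, gave a correlation of 0.467 with the one used. With Myl3 at its dim values, fast minus slow was -1.61, -1.18 and -0.84. Those values moved with single arrays: to -0.87 without AIA 2, to -0.72 (AIA-cold) and -0.39 (AIA-hot) without control 2, and to -2.24, -1.80 and -1.47 without control 1. With the slide as a block they were -0.55 in AIA and 0.39 in AIA-hot. For WTD in AIA-hot the value was 0.40, and -1.67 without AIA-hot-WTD 3. No test was made on these means.

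Other muscle genes, outside the 38, were read from wider lists. Of the further sarcomere genes, 21 were on the array and 9 of them were highest on AIA-hot-WTD 3. The further calcium genes had 4 of 14 highest there, the energy genes 5 of 13 and the development and regeneration genes 3 of 12. Of the neuromuscular junction and the atrophy genes, 0 of 8 each were highest there. The dim control 1 was the highest array for 5 of the 21 sarcomere, 4 of the 14 calcium, 3 of the 13 energy and 6 of the 12 development genes. It was also highest for 4 of 8 in each of the last 2 lists. The share of all genes highest on either array is not given here. None of the 6 lists held a gene called in any comparison (limma, adjusted p of 0.05, with the same background shares as above). At an unadjusted p under 0.05 the highest counts were 4 of the 9 further calcium genes tested, in the difference between both WTD effects (4.13% of all genes), and 3 of the 5 development genes, in AIA-cold against control (18.6%). Ttn, the giant spring protein titin, was 1.06 on AIA-hot-WTD 3 and -0.73 on control 2, with a median of -3.40. Ampd1, muscle AMP deaminase, was 2.71 and -0.00 on those arrays, with a median of -1.26. Ckmt2, the mitochondrial creatine kinase of striated muscle, was 1.35 on AIA-hot-WTD 3.

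Genes of muscle growth gave a mixed picture. Actc1, the actin of heart and of developing muscle, was 3.84 on AIA-hot-WTD 3 and between -0.20 and 1.22 elsewhere. Myh3, embryonic myosin, was highest on AIA-cold 1 at -1.58, the array where Myh1 was also high, and between -4.25 and -3.17 elsewhere. Myod1, a master regulator of the muscle lineage, was well above background on 5 arrays, highest at -2.37 on AIA-hot-WTD 3. Myog, which drives differentiation, was well above background on 5 arrays and highest on AIA-hot 3 at -3.75. Fbp2, muscle fructose bisphosphatase, was 2.44 on control 1, the array where Tnni2 and the cartilage list were high, and -1.65 on AIA-hot-WTD 3.

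By likeness to the mean of the tested muscle genes, 11975 genes with a symbol were compared over the 18 arrays. The 15 most alike outside the list began with Ttn (0.970), Ampd1 (0.956), Ankrd23 (0.955), Eef1a2 (0.946), Dhrs7c (0.941), Ckmt2 (0.919) and Cox8b (0.918), which were the 7 above 0.9. The further 8 were Klhl31, Jsrp1, Fam210a, Nrap, Rpl3l, Kcnj11, Myom2 and Ints10, at 0.878 down to 0.740. All 15 were highest on AIA-hot-WTD 3. Without that array 3 genes were above 0.9: Ttn (0.949), Ampd1 (0.940) and Ankrd23 (0.928).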

How the data were processed

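RNA of 18 knee synovial samples was measured on 1-colour Agilent rat arrays. Probe intensity was deposited as the scanner's processed signal, background-subtracted and detrended within each array and not scaled between arrays, per the file headers (Feature Extraction 10.7, per the submitters' processing notes). The authors' deposited log2 series table, whose centring is not stated, served only as an alternative. Genes were named through a RefSeq table (GRCr8): 18028 probes by accession, 3168 by symbol, 400 by synonym, and 19416 kept the file's name.

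The main values were log2 of the processed signal minus each array's 75th percentile over gene probes. Outlier-flagged spots were dropped and spots of a probe averaged. A probe stayed in if at least 1 group had it well above background on each of its 3 arrays (28271 of 41012 did), and the brightest stood for its gene. A linear model of the 6 group means (R 4.3.3; limma 3.58.1, functions lmFit and eBayes; 12 residual degrees of freedom) gave 9 contrasts, with Benjamini-Hochberg adjustment. The number of arrays, 3 in a group, limits the precision. Scripts were tested on simulated data. Alternatives changed the background correction, scaling, filter, probe rule, outlier flags, slide block and samples fitted, and left out each array. Values for every array were given for up to the 2 widest-range genes of each role, and for Myh1, Myh2 and Myh7; other genes were named by range within their lists. The members and lists were chosen with earlier results of these data known. Groups given BACs or methotrexate, and Pax7, were not analysed here.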

Additional observations from a re-analysis of the deposited data

How the results depend on the processing

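The count of muscle genes called was 0 in all 9 comparisons, under each of the 9 or 10 alternatives run for a comparison and each fit without 1 of its arrays, while all-gene calls in AIA-cold against control ran from 126 as reported to 208 with normexp background correction, 228 with quantile normalization, 224 with the series table and 0 with the slide as a random block or with only the arrays compared. The smallest adjusted p of a muscle gene there was 0.069, with normexp in limma, against 0.212 as reported and 0.400 with the slide as a random block. The median difference kept its sign in 16 of 16 settings for AIA, 15 of 15 for AIA-cold and 16 of 16 for AIA-hot against control, and in 15 of 16 for WTD in AIA-hot. With the slide as a fixed block the AIA-hot against control median was -0.45 and its fast minus slow value 0.39, in place of -1.32 and -0.84; that fit compares the groups through arrays that share slides only. Leaving out 1 array moved the AIA-cold-WTD against AIA-cold median between -0.066 and 0.57, and the fast minus slow difference of both WTD effects between -1.57 and 1.57. The remaining ranges without 1 array are -1.72 to -0.69 for AIA-cold and -1.61 to -0.61 for AIA-hot against control, and -0.30 to 2.09 for WTD in AIA-hot. Normexp moved the all-gene median to -0.15, -0.24 and -0.20 in the comparisons of AIA, AIA-cold and AIA-hot with control. Of single genes, 77 values moved by more than the spread of their replicates under an alternative. A fixed slide block was not run for AIA-cold against control, AIA or AIA-hot, which share no slide. No paired analysis was possible because every array title carries the same replicate number and the numbers used here follow the order of deposit. The dim control 1 limits every comparison with control.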
